A study of Mus musculus with 48 samples.

Results

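Expression of 10 genes of the p53 and DNA damage response was measured in the liver and colon of C57/BL6 mice. They were *Trp53*, *Mdm2*, *Cdkn1a*, *Ccng1*, *Gadd45a*, *Gadd45b*, *Bax*, *Bbc3*, *Chek1* and *Chek2*. They were taken as every probe whose accession carried one of these symbols, which gave 16 probes for the 10 genes, out of 41174 probes and 18434 named genes on the array. Dams and, later, their offspring ate a high-fat diet. For selenium (Se) and folate it was either supplemented (H) or marginally deficient (L). The paper puts both nutrients above the recommended requirement in diet H and below it in diet L. Groups carry 2 letters, of which the former stands for what the dam ate in gestation and lactation and the latter for what the offspring ate from weaning until tissue was taken at 12 weeks of age. HH mice thus had the supplemented diet throughout, and HL mice the deficient diet after weaning only. LH mice had the deficient diet through the dam only, and LL mice had it throughout. All groups carried the wild-type genome and shared the strain, the high-fat base of the diet and the age. There were 23 liver mice, 5 of HH and 6 each of HL, LH and LL, and 24 colon mice, 6 per group. The labels name no litter and pair no colon with the liver of the same mouse.

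p53, encoded by *Trp53*, is a transcription factor that is held at low levels by the ubiquitin ligase Mdm2 and is stabilised when DNA is damaged. Checkpoint kinases carry the damage signal to p53 and to the cell cycle machinery, and p53 then switches on genes that halt division, aid repair or trigger cell death. Much of this control acts on the p53 protein rather than on *Trp53* RNA, so that RNA of the target genes is commonly read as the output of the pathway. In the adult liver most hepatocytes are quiescent, whereas the crypts of the colon renew the epithelium continuously.

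Promoters are shown for the genes on which the results below turn, so that the sites p53 can recognise are visible. All 10 genes had an entry in the RefSeq promoter table (assembly GRCm38.p6), with 13 transcription starts, and the 250 bases before each start were searched on both strands. The p53 half-site is a degenerate pattern of 10 bases, and p53 binds a pair of them. At least 1 match lay in 6 of the 13 windows, those of *Bax*, *Ccng1*, *Cdkn1a*, *Gadd45a*, *Mdm2* and *Trp53*, while 7.13% of all 32851 windows of this length held one. The letters TATAAA, the core of a TATA box, were found before *Gadd45b* and *Trp53*, and in 12.4% of all windows. In *Trp53* they lay on the opposite strand, from 248 bases before the start. A match is a description of letters and not a measured binding site. Each line below runs 5′ to 3′ on the strand of the gene and ends at the base before the start. Capitals mark a match to the p53 half-site, or in *Gadd45b* to TATAAA. The windows lie at chr17:29090729-29090978 (plus strand) for the first start of *Cdkn1a*, at chr17:29093519-29093768 (plus strand) for its second start, at chr10:117710759-117711008 (minus strand) for *Mdm2*, at chr11:40755287-40755536 (minus strand) for *Ccng1* and at chr10:80929841-80930090 (plus strand) for *Gadd45b*.
Cdkn1a, first start: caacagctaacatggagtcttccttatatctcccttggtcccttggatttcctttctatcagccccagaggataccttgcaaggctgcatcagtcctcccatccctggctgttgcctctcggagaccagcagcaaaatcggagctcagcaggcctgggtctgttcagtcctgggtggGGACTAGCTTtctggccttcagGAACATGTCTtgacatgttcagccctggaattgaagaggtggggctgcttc
Cdkn1a, second start: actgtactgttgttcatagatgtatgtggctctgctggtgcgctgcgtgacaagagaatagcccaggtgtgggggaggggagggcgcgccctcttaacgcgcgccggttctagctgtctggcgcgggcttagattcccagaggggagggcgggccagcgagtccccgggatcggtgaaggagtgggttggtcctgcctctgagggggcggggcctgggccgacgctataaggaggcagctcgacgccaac
Mdm2: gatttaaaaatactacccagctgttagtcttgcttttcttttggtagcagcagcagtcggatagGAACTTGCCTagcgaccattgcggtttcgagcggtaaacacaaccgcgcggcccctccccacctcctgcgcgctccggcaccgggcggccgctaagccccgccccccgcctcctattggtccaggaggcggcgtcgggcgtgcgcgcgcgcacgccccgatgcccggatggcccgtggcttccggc
Ccng1: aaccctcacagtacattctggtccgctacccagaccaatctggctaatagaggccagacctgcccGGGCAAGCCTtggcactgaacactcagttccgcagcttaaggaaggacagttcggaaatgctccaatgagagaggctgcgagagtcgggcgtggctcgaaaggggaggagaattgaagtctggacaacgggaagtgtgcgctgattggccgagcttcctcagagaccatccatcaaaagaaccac
Gadd45b: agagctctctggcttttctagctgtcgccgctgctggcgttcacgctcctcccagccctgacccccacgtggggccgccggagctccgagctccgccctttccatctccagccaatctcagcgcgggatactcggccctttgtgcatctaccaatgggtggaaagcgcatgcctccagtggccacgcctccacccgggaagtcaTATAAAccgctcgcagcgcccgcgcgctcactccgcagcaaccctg

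The first *Cdkn1a* window held 2 half-sites, which began 73 and 51 bases before the start, and the second window held none. These 2 did not adjoin, and whether p53 binds them as a pair was not tested. The 10 bases right after the latter missed the pattern at their first base only. The matches of *Mdm2* and *Ccng1* began 186 and 185 bases before the start. In *Gadd45b* the TATAAA letters began 46 bases before the start and no half-site was found in the window.

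Each array carried the RNA of 1 mouse in Cy3 and a common reference RNA in Cy5, and values are log2 ratios of mouse over reference, so that 0 is the level of the reference and 1 unit is a doubling. A ratio compares a gene with itself across mice and says nothing of 1 gene against another. In the liver 55.1 to 66% of spots were well above background in Cy3, and in the colon 66.8 to 73.7%. The measured hepatocyte markers averaged 1.41 to 2.16 in every liver and -4.88 to -4.14 in every colon, and the colon epithelium markers -3.85 to -3.18 and 0.17 to 0.86, so that all samples matched their labelled tissue. The study describes male offspring, yet the female transcript *Xist* was well above background on 8 liver and 18 colon arrays. On 2 liver and 6 colon arrays its signal was over 2 log2 units above the median of the tissue. In the liver these were HL replicate 2 and LL replicate 6. In the colon they were HH replicates 1 and 5, HL replicate 5 and LL replicates 1, 3 and 5, with none in LH. Of these, liver HL replicate 2, colon HL replicate 5 and colon LL replicates 1 and 3 had little signal of the Y-linked *Ddx3y*. It was 6.29 to 7.16 there in log2 Cy3 and 8.95 or more elsewhere. Moreover, 2 liver mice stood apart for pancreatic acinar or adipocyte markers and 1 colon mouse for immune cell markers. Mice over the *Xist* cutoff are called mice with *Xist* signal. Without them, and likewise without the mice with markers of another tissue, the counts of the 10 genes called were the same in every comparison. The labels give 2 HH liver arrays to a single mouse, HH replicate 3, and these were averaged. As whole tissues were used, fewer cells of a type and less RNA per cell cannot be told apart. P-values set a difference against the spread between mice within groups, pooled over the groups. They take the mice as independent, although slides were shared and litters are not named.

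Between the tissues, 7 of the 10 genes differed by a fold change over 1.5 with FDR under 0.05, whereas between the diet groups none did in either tissue. In the colon 6 genes were higher than in the liver, namely *Cdkn1a*, *Ccng1*, *Gadd45a*, *Gadd45b*, *Chek1* and *Chek2*, and *Bbc3* was lower. With the second *Ccng1* probe, which was called the other way, 5 genes were higher and 2 lower. For comparison, 30.3% of all probes passed the same threshold between colon and liver, 15.7% higher and 14.6% lower in the colon. The median difference of the 10 genes was 0.72 on the log2 scale (0.49 with the second *Ccng1* probe) and that of all probes was -0.01. The mice of the 2 tissues did not overlap for 3 of the 10 genes, *Cdkn1a*, *Gadd45b* and *Chek2*, and for 23.2% of all probes. The values given are those of the probe with the highest mean signal for each gene, and a second probe is given where it disagreed. The second probes of *Chek1* and *Chek2* were higher in the colon as well, but by less than 1.5-fold. Colon and liver RNA were hybridised on separate slides, so that slide and tissue cannot be told apart in these differences.

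**Figure D1:**
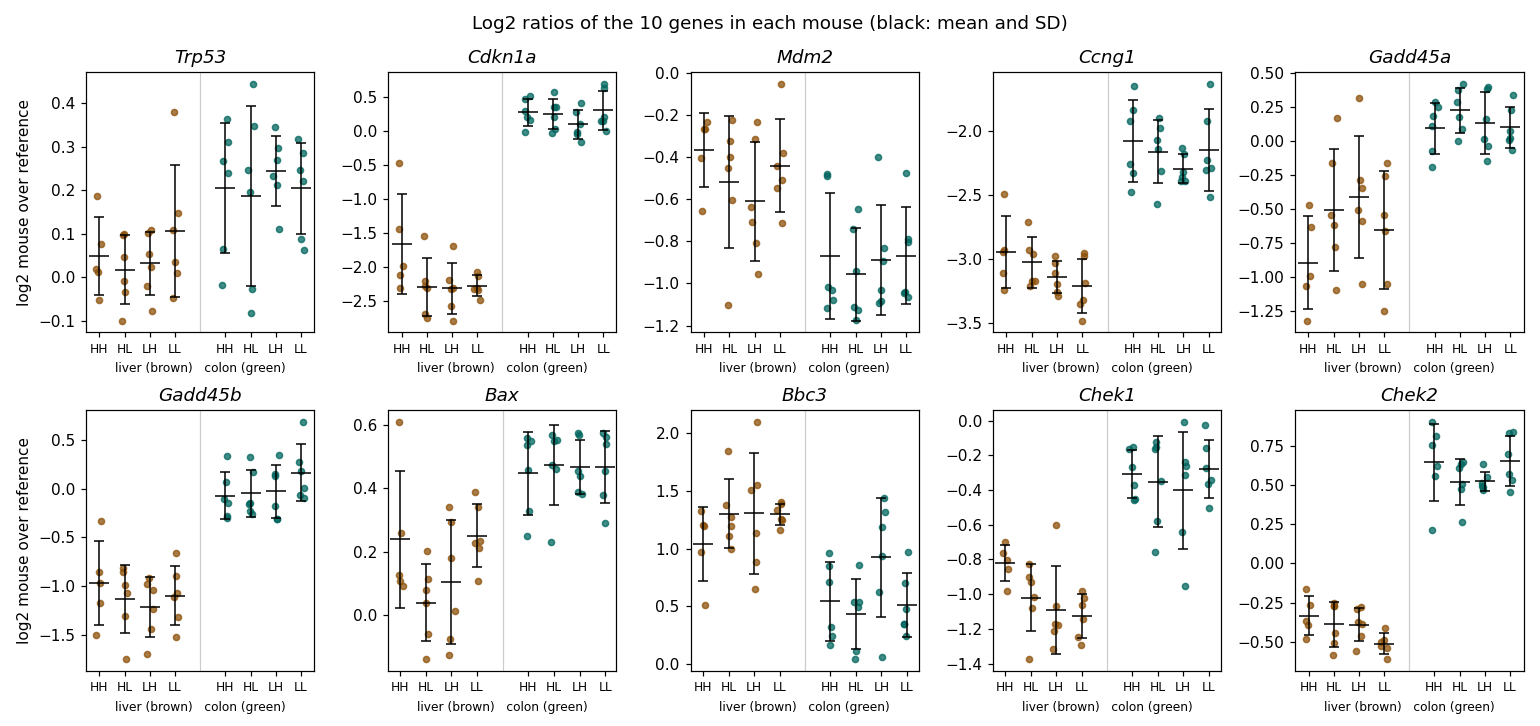
Log2 ratio of mouse over reference (vertical axis, separate scale per panel) for the 10 genes in each of the 23 liver mice (brown) and 24 colon mice (green), by diet group, with the group mean and SD in black. *Cdkn1a*, *Gadd45b* and *Chek2* show 2 separate clouds, liver below colon (23.2% of all probes did not overlap), while within a tissue the diet groups overlap, with 1 HH liver far above the others for *Cdkn1a*. *Chek1* and *Chek2* were not well above background in most livers.

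*Trp53*, the gene of p53 itself, was close to the level of the reference in both tissues with the brighter probe. Liver mice lay between -0.10 and 0.38 with a median of 0.04, and colon mice between -0.08 and 0.45 with a median of 0.24. The tissues overlapped. The colon was higher by 0.16 (SE 0.04, adjusted p = 2.2e-04 by limma), which is a fold change of 1.12 and below the threshold. It was 0.20 without the mice with *Xist* signal, and 0.77 (adjusted p = 5.1e-19 by limma), past the threshold, with median centring of the arrays in place of loess. Its second probe gave 0.50 (SE 0.08), also below the 1.5-fold threshold. With that probe colon mice lay between 0.12 and 0.92, all above the reference, and liver mice between -0.50 and 0.64.

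*Mdm2*, the inhibitor that marks p53 for destruction and is itself switched on by p53, was below the reference in every mouse with the brighter probe. Liver mice lay between -1.10 and -0.05, with a median of -0.44, and colon mice between -1.17 and -0.40, with a median of -1.02. With the second probe every colon was below the reference, but livers lay on both sides of it, between -0.44 and 0.37. The colon mean was lower by 0.41 (SE 0.07, adjusted p = 2.3e-06 by limma) and that of the second probe by 0.44, neither by 1.5-fold, and the direction turned to 0.21 higher in the colon when the arrays were centred on their median instead of fitted by loess. With that centring the median of all probes itself moved to -0.22, so that the position of *Mdm2* relative to all probes also depended on the scaling.

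Among the genes that halt division, *Cdkn1a* differed most between the tissues. It encodes p21, the inhibitor of cyclin-dependent kinases through which p53 arrests cells in G1. Liver mice lay between -2.79 and -0.48 with a median of -2.31, and colon mice between -0.17 and 0.69 with a median of 0.20. No liver reached the lowest colon. The colon was higher by 2.36 (SE 0.10, adjusted p = 3.7e-25 by limma), a fold change of 5.14, and the difference stood at 1.93 in HH, 2.54 in HL, 2.41 in LH and 2.58 in LL. It was 2.40 without the mice with *Xist* signal and 2.38 without those with markers of another tissue.

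*Ccng1*, which encodes cyclin G1, a p53 target that acts on Mdm2, was the gene on which the probes went opposite ways. With the brighter probe liver mice lay between -3.48 and -2.49 and colon mice between -2.57 and -1.63, so that the tissues met at the edge only. The colon was higher by 0.91 (SE 0.07, adjusted p = 2.4e-16 by limma). The second probe gave -0.80 (SE 0.06, adjusted p = 5.2e-16), with liver mice between -0.74 and 0.37 and colon mice between -1.45 and -0.78. Both passed the threshold, and their mean of 0.05 did not (adjusted p = 0.303), so that the direction for *Ccng1* rests on the choice of probe.

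*Gadd45a* and *Gadd45b*, paralogous stress sensors that bind stress kinases and cell cycle proteins, were both higher in the colon. For *Gadd45b* liver mice lay between -1.74 and -0.33 and colon mice between -0.31 and 0.68, without overlap, and the difference was 1.10 (SE 0.09, adjusted p = 1.3e-15 by limma). Its second probe gave a larger difference of 2.28 (SE 0.11). For *Gadd45a* liver mice spread widely, between -1.32 and 0.31, and overlapped with the colon mice, between -0.19 and 0.42. The *Gadd45a* difference was 0.75 (SE 0.09, adjusted p = 5.6e-10).

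The death genes differed with opposite signs, and of them *Bbc3* passed the threshold. *Bbc3*, which encodes Puma, a protein that frees the pore formers of the mitochondrial membrane, was above the reference in every mouse of both tissues. Liver mice lay between 0.51 and 2.10 and colon mice between 0.05 and 1.44, with much overlap. The colon was lower by 0.63 (SE 0.10, adjusted p = 3.4e-07 by limma), but this was -0.05 (adjusted p = 0.577) with median centring of the arrays. *Bax*, one of the pore formers, lay between -0.14 and 0.61 in the liver and between 0.23 and 0.58 in the colon, and the difference of 0.31 (SE 0.04, adjusted p = 1.0e-08 by limma) was below 1.5-fold. With median centring it was 0.93 (adjusted p = 5.5e-22) and past the threshold.

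The checkpoint kinases were measured in the colon but hardly in the liver. *Chek1*, which answers stalled replication forks, was well above background on all 24 colon arrays and on 2 of 24 liver arrays, both HH. *Chek2*, which answers double-strand breaks, was well above background on all 24 colon arrays and on 4 of 24 liver arrays. On the Cy3 signal, with the liver set at its own or the lowest detected level, *Chek1* was at least 1.49-fold and *Chek2* at least 1.77-fold higher in the colon (limma adjusted p = 1.1e-13 and 2.9e-25 for the ratios). These bounds come from 1 dye without a dye swap and are open to dye bias. The second probe of *Chek2* was well above background on 4 colon arrays and on no liver array. In log2 ratio the second probe of *Chek1* averaged -0.19 in the colon and -0.68 in the liver, and that of *Chek2* 0.11 and -0.14. The bound for *Chek1* was below the 1.5-fold of the call, and for its second probe it was 1.34-fold, so that a difference of 1.5-fold was not shown for this gene on the Cy3 signal.

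**Figure D2:**
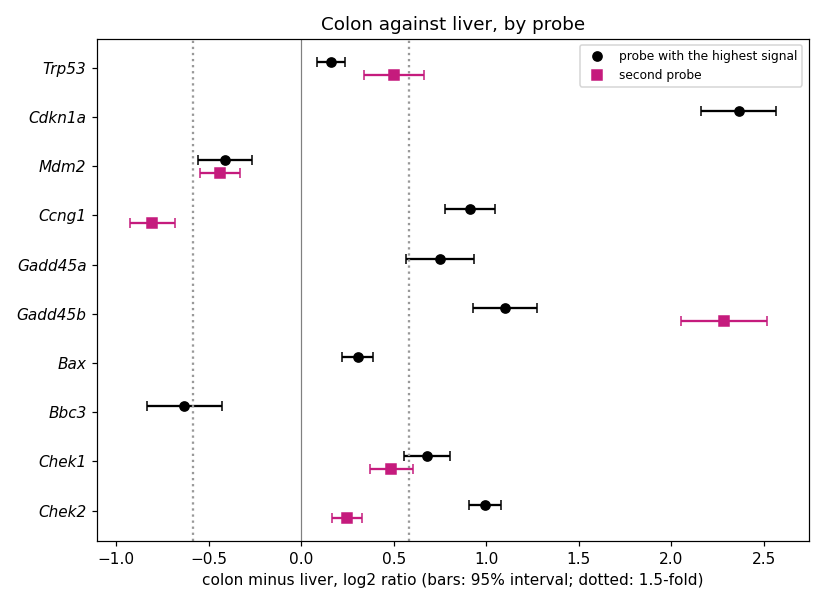
Difference in log2 ratio, colon minus liver (horizontal axis), for each gene, with 95% intervals, for the probe with the highest signal (black) and the second probe (magenta), and dotted lines at 1.5-fold. *Cdkn1a* lies at 2.36, the 2 *Ccng1* probes lie on opposite sides of 0, and the *Mdm2* probes lie at -0.41 and -0.44, a direction that turns with median centring of the arrays. For *Chek1* and *Chek2* the liver side is at or near background.

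Markers of dividing cells moved with this tissue difference. Of 12 measured markers, such as *Mki67* and *Top2a*, 11 were higher in the colon at the same threshold, with a median difference of 1.96, and their mean ratio lay between -2.45 and -1.55 in livers and between -0.72 and 0.08 in colons. All 6 smooth muscle markers and all 4 adipocyte markers were higher in the colon as well. The part of these cells in the differences of the 10 genes was not tested.

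Other genes of the pathway were split in the same comparison. Of 71 measured genes on lists of p53 targets and of damage signalling, 24 were higher and 6 lower in the colon, with a median of 0.31, while 15.7% of all probes were called higher and 14.6% lower. Damage signalling had 8 of 28 measured genes higher and none lower, among them *Cdc25b*, the phosphatase that starts mitosis (2.43), *Pcna*, the sliding clamp of replication (1.43), *Cdc25a*, *Topbp1*, *H2ax*, *Trp53bp1* and *Rad50*. Arrest and repair targets had 9 of 24 higher, led by *Rprm* (2.34), *Phlda3* (2.32), *Ddit4* (1.62) and *Btg2* (1.59) and completed by *Zmat3*, *Sfn*, *Sesn1*, *Cdkn1b* and *Trp53inp1*. The 4 that were lower were *Plk3* (-2.10), the stress cytokine gene *Gdf15* (-1.30), *Mdm4*, the partner of Mdm2 (-1.02), and *Sesn2* (-0.62). Death genes had 7 of 19 higher, among them both the inhibitor *Bcl2* (2.35) and the death genes *Pmaip1* (1.90) and *Bak1* (1.77), together with *Trp53i11*, *Apaf1*, *Trp53i13* and the survival gene *Mcl1*. The death receptor gene *Fas* (-0.80) and *Ei24* (-1.32) were lower. *Btg2* is also on the list of immediate-early genes, of which 6 of 8 were higher in the colon.

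The diets were compared within each tissue. None of the 10 genes passed the threshold by limma in any of the 6 pairwise comparisons of the 4 groups, in the dam or offspring diet effect, or in the interaction, and neither did any other probe (0% of all probes in each). At the same threshold the paper reports liver probes that differ between HH and each of HL, LH and LL, and none in the colon. Its gene set analysis also reports changes in DNA damage regulation between HH and LH colons. The reason for the unlike liver counts was not tested, and gene sets were not tested here. The comparison of HH *vs.* LH sets the dam diets against each other in offspring on the same diet. Only LH mice changed diet at weaning, so that dam diet and this change cannot be told apart in it. It had 12% of all liver probes at an unadjusted p under 0.05, and 2 of the 10 genes, *Cdkn1a* and *Chek1*, both lower in LH. These counts take the brighter probe of each gene. The second probes of *Trp53*, *Mdm2*, *Ccng1* and *Gadd45b*, given below, had larger differences in LH, that of *Mdm2* upward. The limma adjusted p of the second *Gadd45b* probe was below that of *Cdkn1a*, so that its unadjusted p was under 0.05 as well. The count of 2 for HH *vs.* LH therefore depends on the choice of probe. HH *vs.* HL had 4.38% of liver probes and 1 of the genes, *Cdkn1a*, and HH *vs.* LL had 3.45% of liver probes and 4 of the genes (*Cdkn1a*, *Ccng1*, *Chek1* and *Chek2*, all lower in LL). All 12 measured markers of dividing cells were also lower than in HH, in HL livers (3 with an unadjusted p under 0.05, median -0.23) and in LL livers (6, median -0.29), and their part in these values was not tested. The mean of LH and LL against that of HH and HL had 4.14% of liver probes and 2 of the genes, *Ccng1* and *Chek1*. HL *vs.* LL, which also sets the dam diets against each other, had 3.08% of liver probes and 1 of the genes, *Bax*. The interaction had 11.4% of liver probes and 1 of the genes, again *Bax*. All these comparisons share mice, and *Chek1* and *Chek2* were not well above background there. The median difference of the 10 genes in liver LH was -0.17, while that of all probes was -0.01.

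*Cdkn1a* had the largest difference from HH in the liver, a rank that rested on 1 mouse. The HH mice stood at -2.12, -2.31, -0.48, -1.44 and -1.98. HL mice ran from -2.75 over a median of -2.30 to -1.55, LH mice from -2.79 over -2.32 to -1.69, and LL mice from -2.49 over -2.32 to -2.07. A single HH mouse, replicate 3, was above all other livers, of which the next stood at -1.44, and its 2 arrays gave -0.47 and -0.49. LH was lower than HH by 0.65 (SE 0.26, adjusted p = 0.320 by limma), HL by 0.63 (adjusted p = 0.952 by limma) and LL by 0.61 (adjusted p = 1.0 by limma). Without HH replicate 3 the differences were -0.35, -0.33 and -0.31, none with an unadjusted p under 0.05, and *Gadd45a* in LH, at 0.38, was then farther from 0 than these. Of the 6 liver slides, 2 carried the arrays of this mouse, so that counts over the liver slides rest on 5 HH mice. Set against the HH array of the same slide, LH was lower on 4 of 6 slides, with a range from -2.10 to 0.42.

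The same HH mouse stood at the end of its group for other genes. It had the highest *Bax* (0.61, the other HH mice 0.09 to 0.26), the lowest *Bbc3* (0.51, the others 0.97 to 1.32), the lowest *Gadd45a* (-1.32, the others -1.06 to -0.47) and the highest *Ccng1* (-2.49). Its mean over the markers of dividing cells was -1.55, above every other liver. Its means over immune cell markers, 0.87, and over immediate-early genes, -0.58, were the highest of all livers. That over clock genes, -0.25, was the lowest of all livers. The part of these in its *Cdkn1a* value was not tested. *Cdkn1a* without this mouse, given above, had the same direction in all 3 comparisons at a smaller size.

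*Gadd45a* had the largest positive difference in the liver. HH mice stood at -0.47, -0.63, -1.32, -1.06 and -0.99, and LH mice ran from -1.05 over a median of -0.43 to 0.31. The groups overlapped. LH was higher by 0.48 (SE 0.24, adjusted p = 0.428 by limma), between 0.34 and 0.61 when a mouse was left out, and was higher on 4 of 6 slides. Its paralogue *Gadd45b* was lower in LH by 0.25 (SE 0.20, adjusted p = 0.644 by limma), and the second *Gadd45b* probe by 0.48 (adjusted p = 0.319 by limma). With the brighter probe the *Gadd45b* difference was -0.09 without HH replicate 5, -0.15 without LH replicate 5 and -0.38 without HH replicate 2.

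*Ccng1* in LH livers ran from -3.29 over -3.15 to -2.97 and in HH livers from -3.24 over -2.94 to -2.49. LH was below HH on all 6 slides, by 0.20 on average (SE 0.12, adjusted p = 0.532 by limma), and by 0.09 without HH replicate 3. Its second probe gave a difference of -0.33 (adjusted p = 0.323 by limma), so that here both probes pointed the same way, unlike between the tissues.

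*Trp53* and *Mdm2* had probes that disagreed between HH and LH livers. *Trp53* differed by -0.02 (95% interval -0.16 to 0.13) with the brighter probe and by -0.43 (adjusted p = 0.357 by limma) with the second. *Mdm2* differed by -0.24 (SE 0.15, adjusted p = 0.528 by limma) with the brighter probe and by 0.27 (adjusted p = 0.397 by limma) with the second. The direction for *Trp53* also turned under median centring (0.13) and with Cy3 alone (0.07). Against the HH array of the same slide, the second *Trp53* probe was lower in LH on 6 of 6 slides and the brighter on 4 of 6. The second *Mdm2* probe was higher on 6 of 6 and the brighter lower on 5 of 6. For both genes the direction in LH livers therefore depended on the probe or the processing.

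Of the death genes, *Bbc3* in LH livers ran from 0.65 over a median of 1.33 to 2.10 against 0.51 to 1.32 in HH, a difference of 0.26 (SE 0.20, adjusted p = 0.621 by limma). It was 0.10 without LH replicate 1, 0.13 without HH replicate 3 and 0.35 without the mice with markers of another tissue. *Bax* was lower by 0.13 in LH (SE 0.10, adjusted p = 0.615 by limma), by 0.04 without HH replicate 3, by 0.09 without LH replicate 5 and by 0.17 without the mice with markers of another tissue, and was 0.01 higher with median centring. In HL livers *Bax* was below HH on all 6 slides, by 0.20 (adjusted p = 0.952 by limma), whereas the LL mean was 0.25 and the HH mean 0.24. The interaction of the 2 diets for *Bax* was 0.35 (SE 0.14, adjusted p = 0.351 by limma). Of the 8 genes measured in the liver, the 95% interval of LH minus HH left out a 1.5-fold difference in either direction with every probe for 2, *Mdm2* and *Bax*. For *Trp53* and *Ccng1* it did so with the brighter probe but not with the second, and for *Cdkn1a*, *Gadd45a*, *Gadd45b* and *Bbc3* it did not.

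**Figure D3:**
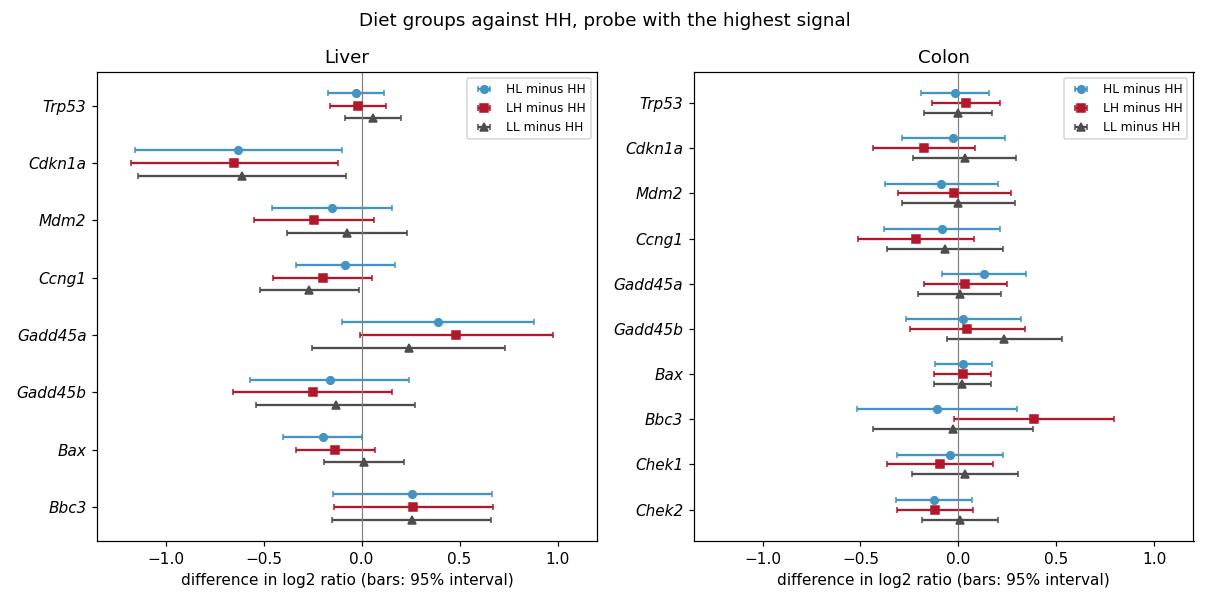
Difference in log2 ratio of HL, LH and LL from HH (horizontal axis) with 95% intervals, in the liver (left, 8 genes well above background) and the colon (right, 10 genes), none of them past FDR 0.05. In the liver the *Cdkn1a* intervals lie below 0 in all 3 comparisons, which share the HH mice, at -0.63, -0.65 and -0.61, and reach 0 in all 3 without HH replicate 3. In the colon the point farthest from 0 is *Bbc3* in LH, at 0.38. The directions of liver *Trp53* and *Bax* in LH turn with median centring of the arrays.

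In the colon none of the 10 genes had an unadjusted p under 0.05 for HH *vs.* LH, against 3.24% of all probes, and the median difference of the 10 genes was 0.0004. For 8 of the 10 genes the 95% interval left out a 1.5-fold difference with every probe, and the exceptions were *Bbc3* and the second probe of *Gadd45b*. HH colons ran from 0.16 over a median of 0.52 to 0.97 for *Bbc3*, HL colons from 0.05 over 0.52 to 0.86, LH colons from 0.06 over 1.06 to 1.44, and LL colons from 0.24 over 0.41 to 0.98. The middle of LH lay above the other groups, but its lowest mouse was near the bottom of all. LH was higher than HH by 0.38 (SE 0.20, adjusted p = 1.0 by limma), higher on 5 of 6 slides, and by 0.56 without LH replicate 5. LH was also higher than HL by 0.49 (adjusted p = 1.0 by limma), and LL was lower than LH by 0.41 (adjusted p = 1.0 by limma). *Bbc3* was 0.42 higher in LH than in HH without the mice with *Xist* signal.

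*Cdkn1a* in LH colons was 0.18 below HH (SE 0.13, adjusted p = 1.0 by limma), and *Ccng1* 0.22 below (SE 0.14, adjusted p = 1.0 by limma). The other 7 genes differed by 0.12 or less in either direction with the brighter probe. The second probe of *Gadd45b* was 0.34 higher in LH (95% interval -0.18 to 0.85, adjusted p = 1.0 by limma), on 5 of 6 slides, whereas the brighter probe differed by 0.05. The second probe of *Chek2* gave -0.19 (adjusted p = 1.0 by limma) but was well above background on 1 HH colon array and on no LH colon array. Whether the difference between HH and LH was itself different in colon and liver was tested for each gene, and none of the 10 passed (lowest adjusted p 0.708, limma). The second probe of *Gadd45b* had a difference between tissues of 0.82 (adjusted p = 0.607 by limma).

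The other pathway genes were likewise below the threshold in every diet comparison tested. In HH *vs.* LH livers 14 of the 71 had an unadjusted p under 0.05 (12% of all probes did), 5 higher and 9 lower in LH, with a lowest adjusted p of 0.237 (limma). Among the lowest p-values on the 3 lists were those of *Gadd45g*, the third *Gadd45* paralogue (-0.90), and *Cdc25b* (-0.26) among the damage signalling genes, of *Bak1* (-0.31), *Bid* (0.32) and *Siva1* (-0.46) among the death genes, and of *Ckap2* (-0.41), *Xpc* (0.36) and *Sfn* (0.29) among the arrest and repair targets. In these livers 11 of 12 markers of dividing cells were also lower in LH, 7 with an unadjusted p under 0.05, with a median of -0.27, and their part in these values was not tested. In HH *vs.* LH colons 7 of the 71 had an unadjusted p under 0.05 (3.24% of all probes did), 3 higher and 4 lower in LH. Among the lowest p-values there were those of *Cdc25c* (-0.19) and *Topbp1* (-0.22), of *Bcl2l11*, which encodes the death protein Bim (0.32), *Bcl2* (0.25) and *Bak1* (-0.17), and of *Sesn1* (0.20), *Plk2* (0.33) and *Rrm2b* (0.14). Of the markers of dividing cells, 11 of 12 were lower in LH colons, 3 of them with an unadjusted p under 0.05, with a median of -0.24.

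Within the diet groups, the genes did not vary together as 1 block. Correlations are given as descriptions, over the deviations of 23 livers or 24 colons from the mean of their group. They share arrays and slides. In the liver *Cdkn1a* went with *Mdm2* (r = 0.59), *Ccng1* (r = 0.58) and *Bax* (r = 0.57), and *Mdm2* with *Gadd45b* (r = 0.60), while *Gadd45a* went against *Gadd45b* (r = -0.45). Without HH replicate 3 the r of *Cdkn1a* was 0.69 with *Mdm2* but 0.33 with *Ccng1* and 0.30 with *Bax*. These values are of the brighter probes. With the second *Mdm2* probe, over all 23 livers, r was -0.03 with *Cdkn1a* and -0.01 with *Gadd45b*. In the colon *Cdkn1a* had an r of 0.02 with *Mdm2* and 0.04 with *Ccng1*. There *Mdm2* went with *Ccng1* (r = 0.61), and *Trp53* went against both, with r of -0.64 and -0.67.

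**Figure D4:**
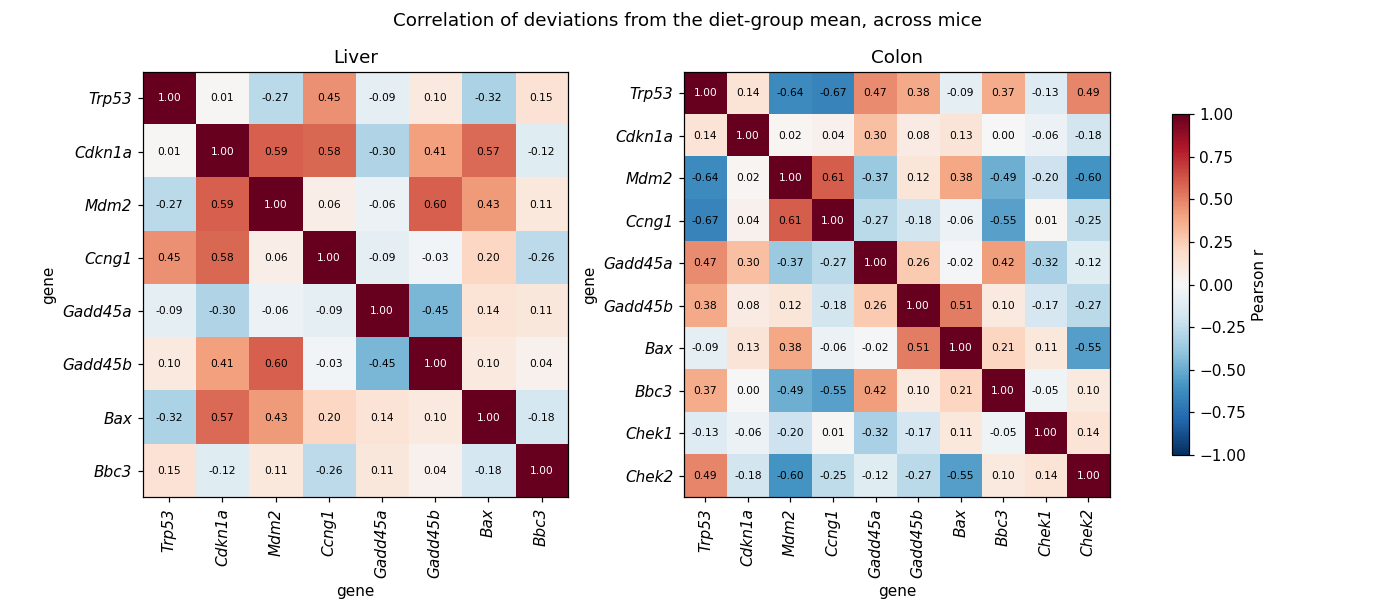
Pearson correlation between genes (both axes) of the deviations of each mouse from its diet-group mean, in 23 livers (8 genes well above background) and 24 colons (10 genes), red positive and blue negative. The *Cdkn1a* row is red against *Mdm2*, *Ccng1* and *Bax* in the liver (0.57 to 0.59) and near 0 for *Mdm2* and *Ccng1* in the colon, where *Trp53* is blue against *Mdm2* and *Ccng1*. All values are those of the probe with the highest signal.

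The slide took part in this variation. A slide held 4 arrays, 1 of each diet group, and it accounted for 64.5% of the variance of *Mdm2* within groups in the liver and 74.8% in the colon, and for 54.6% and 75.4% of that of *Trp53*, against medians over all probes of 32.9% and 45.4%. For *Cdkn1a* it was 23.9% and 24.6%. Probes of the same gene did not always follow each other, with r of 0.77 in the liver and 0.69 in the colon for *Gadd45b*, 0.48 and -0.45 for *Ccng1*, and 0.28 and -0.36 for *Mdm2*. The correlations of *Mdm2*, *Ccng1* and *Trp53* in both tissues are therefore values of these probes.

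The genes most like some of the members were found by the same correlation over 13616 genes in the liver and 15148 in the colon. *Cdkn1a* in the liver was closest to *Tlr1* (r = 0.88), *Cdc20* (r = 0.88) and *Hilpda* (r = 0.87), and these were 0.87, 0.77 and 0.89 without HH replicate 3. In the colon it was closest to *Olfr29-ps1* (r = 0.71), *Sppl2a* (r = 0.70) and *Selenbp1* (r = 0.68). *Chek1* in the colon was closest to *Fignl1* (r = 0.78), *Exo1* (r = 0.77) and *Pcna* (r = 0.76). *Ccng1* was closest to *Trnt1*, *H1f2* and *E2f1* in the liver (r from 0.80 to 0.84) and to *Ehhadh*, *Caprin1* and *Atf6b* in the colon (r from 0.92 to 0.94), and *Mdm2* to *Pus7l*, *Pop7* and *Ctps* in the liver (r = 0.93 each) and to *Mapk12*, *Oser1* and *Arpc3* in the colon (r from 0.93 to 0.94). For *Cdkn1a*, *Ccng1* and *Mdm2* the closest 3 genes in the liver were different from those in the colon.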

How the data were processed

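RNA was measured on 48 Agilent 2-colour arrays on 12 slides, with mouse RNA in Cy3 and a common reference in Cy5 and no dye swap. The reference is pooled intestinal and liver RNA per the paper and that of an entire pregnant mouse with its foetus per the series' design text. The authors deposited the intensity of each spot and its local background, without normalization, and also normalized log2 ratios, with the reference over the mouse. These matched loess without background correction at r of 0.9997 or above and served as an alternative. Per the submitters' notes limma and R 3.0.2 were used. Feature Extraction 10.10.1.1 is given in the file headers.

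Computations used R 4.3.3, limma 3.58.1 and data.table (version 1.17.8). Local backgrounds brighter than their own spot were replaced by the median background of the array (at most 12 per array in Cy3 and 32 to 638 in Cy5), outlier spots were left out (102 to 261 per array), normexp with an offset of 50 and then loess within arrays were applied, and spots of a probe averaged. Names came from accessions (27050 probes matched). Tissues were fitted separately with lmFit and eBayes over 4 groups, and together for colon against liver. P-values were adjusted by Benjamini-Hochberg across all probes with at least 2 mice of each group (41171 liver, 41173 colon). Probes with a fold change over 1.5 and FDR under 0.05 were called. The number of arrays limits the precision. Differences are the second-named group minus the first.

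The genes and lists were chosen with earlier results of these data known. All 10 genes are named, and on the pathway lists those called or, where none was, the 3 with the lowest p, of which 1 gene is not reported here. Within a tissue, arrays with the same replicate number shared a slide. Deviations of mice on a shared slide correlated by -0.32 to 0.67 (median 0.17, other pairs -0.03) in the liver and by 0.09 to 0.72 (median 0.36, others -0.13) in the colon. Alternatives were the background, normalization, probe choice, slide block, and leaving out mice. The model was tested on simulated data.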

Additional observations from a re-analysis of the deposited data

Results flagged for a closer look

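In 2 of 80 sets of values (10 genes in 8 groups of mice, by the probe with the highest signal) a mouse stood apart from the rest by Dixon's 95% criterion, and chance gives about 1 in 20. *Bax* in the colon of HL replicate 3 was 0.2324 on the log2 scale, below the other 5 HL colons. Replicate 3, whose mice shared a slide, was also the lowest *Bax* colon of HH (0.2515), LH (0.3816) and LL (0.2927), and the slide accounted for 57.2% of the variance of *Bax* within groups in the colon. *Chek1* in the liver of LH replicate 1 was -0.6023, above the other 5 LH livers, where this probe was not well above background.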

How the results depend on the processing

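The 7 genes called between colon and liver and the 0 called between diets stayed at these counts in most settings. The exceptions were 5 with the mean of all probes, 6 without the background repair, 8 with median centring and 10 without a fold change minimum, all between colon and liver. Over all probes, calls between colon and liver were 20275 with processed signals, 24221 with median centring and 28650 without the fold change minimum, against 12491. In HH *vs.* LH livers 0 probes became 6 with the repeat arrays as 2 mice, 18 with only the 2 groups fitted and 0 to 2 with a mouse left out. With the slide (replicate) as a block the liver interaction had 4 probes called, and without the mice with markers of another tissue, a setting chosen after seeing the data, it had 2. The block changed no call of the 10 genes. Single genes reversed as follows. *Bax* in HH *vs.* LH livers was 0.008 with median centring, *Mdm2* 0.0134 with the mean of its probes, and *Trp53* 0.066 with Cy3 alone, 0.1319 with median centring and -0.0419 to 0.018 with a mouse left out. *Mdm2* between colon and liver was 0.205 with median centring. With the second *Ccng1* probe, also chosen after seeing the data, *Ccng1* was -0.8036. Calls between colon and liver were lost for *Bbc3* (-0.0512, median centring), *Ccng1* (0.0539, mean of probes) and *Chek1* (0.5831, mean of probes, and 0.5286, no repair), and gained for *Bax* (0.9326) and *Trp53* (0.7729) with median centring. The cause was not tested. Signal over background limited *Chek1* and *Chek2* in the liver.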
